A study of Drosophila melanogaster with 16 samples.

Results

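The effect of diet was measured in RNA from larvae of Drosophila melanogaster carrying the Dahomey mitochondrial genome (mitotype), by setting 4 libraries from larvae fed a carbohydrate-rich diet with a protein to carbohydrate ratio of 1:16 (1:16 P:C) against 4 libraries from larvae fed a protein-rich diet with a ratio of 1:2 (1:2 P:C). These 8 libraries were all the Dahomey libraries among the 16 of the series, and the other 8 came from larvae of the Alstonville mitotype on the same pair of diets. Both groups shared the Dahomey mtDNA in a w1118 nuclear background, in lines made isogenic apart from mtDNA and chromosome 4 and then backcrossed repeatedly to w1118. The methods describe female larvae of the third instar taken at the wandering stage, isocaloric diets varied in yeast, treacle, semolina and sucrose, and a gut microbe homogenate added to every bottle. GEO's labels give the mitotype, the diet and the instar, and give neither the sex nor the number of larvae in a library, and their extraction text speaks of sorted cells, which no other source mentions. Reads were counted per gene, with 24869991 to 28431755 counts per library on 1:16 P:C and 25997459 to 28327454 on 1:2 P:C, and levels are given as CPM, counts scaled to the effective size of the library.

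Larvae that eat little protein and much sugar draw on a known set of responses. Dietary sugar is sensed through the Mondo and Mlx transcription factors, which switch on sugarbabe (sug), glycolytic genes and the enzymes of fat synthesis. Late in the third instar larvae stop feeding, the prothoracic gland makes the steroid ecdysone, the fat body makes storage proteins and the salivary gland makes glue, and these programmes are carried by well known marker genes.

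Of 12750 genes tested, 6249 (49.0%) passed an adjusted p of 0.05 in edgeR's quasi-likelihood test. Of these, 3137 (24.6%) were higher on 1:16 P:C and 3112 (24.4%) were lower. The median log2 fold change over all genes tested was -0.12. Among the called genes, 1649 were more than 2-fold higher and 1053 more than 2-fold lower, and 3547 changed by less than 2-fold. Of the called genes, 5292 had no overlap between the 4 libraries of one diet and the 4 of the other, and 45.2% of all genes tested had none. Lower genes had the longest summed exons, with a median of 2615 bases per gene. Higher genes, with 1681 bases, were near the genes not called, with 1618. The methods call replicates biologically distinct samples, but no label says that the libraries of a group came from separate bottles, so p-values measure the spread between these libraries.

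Libraries within a diet were not alike, and this bears on every result. The root mean square log2 difference over all genes tested was 0.424 to 0.555 among 1:16 P:C replicates 1, 3 and 4, but 0.744 to 0.820 between replicate 2 and each of them. Among the 1:2 P:C libraries it ran between 0.570 and 2.28, which reached above the largest difference between diets, 2.10. Replicates 1 and 3 of the 1:2 P:C diet were close to each other, and replicate 4 was far from both.

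RNAs that mark males were abundant in most of these libraries, although the methods describe female larvae. roX1, the noncoding RNA of the male dosage compensation complex, stood at 347, 258, 320.3 and 319 CPM on 1:16 P:C, against 13, 189, 16 and 685 CPM on 1:2 P:C. It was high in all 1:16 P:C libraries and in 1:2 P:C replicates 2 and 4, and low in 1:2 P:C replicates 1 and 3. The testis tubulin betaTub85D followed the same libraries, with 16.4, 7.68, 10.1 and 24.5 CPM on 1:16 P:C, against 0.243, 18.7, 0.316 and 148 CPM on 1:2 P:C. The 20 tested genes of a male and testis list held 0.0449, 0.0363, 0.0355 and 0.0464% of the counts on 1:16 P:C, against 0.00369, 0.0313, 0.00394 and 0.165% on 1:2 P:C. None of the 20 passed the diet test, and their median log2 fold change of -1.23 turned to 1.28 without 1:2 P:C replicate 4, where 1 of the 20 was higher. roX1 is itself a member of that list, so a fit with the log2 roX1 level as a covariate is no separate test of the list. In that fit 9 of the 20 were lower, and over all alternative settings 0 to 15 were higher and 0 to 9 lower. The part of these RNAs in the diet results was not tested beyond this, except that 6370 genes in all were called with that covariate, of which 5430 were among the 6249 above, each in the same direction.

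**Figure D1:**
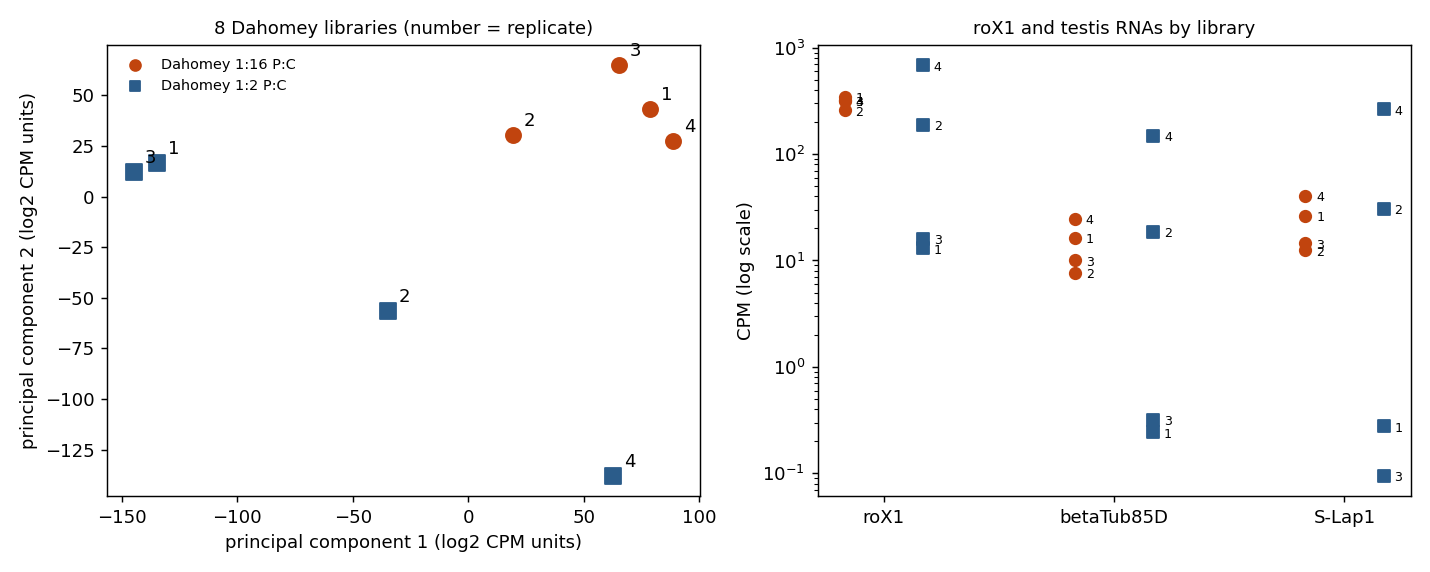
Left, the first 2 principal components of the 8 Dahomey libraries on log2 CPM, with 61.2% and 29.5% of the variance, circles for 1:16 P:C and squares for 1:2 P:C, numbered by replicate. Right, CPM on a log scale of roX1 and of the testis genes betaTub85D and S-Lap1 in each library, where 1:2 P:C replicate 4 is highest for all 3 genes and 1:2 P:C replicates 1 and 3 are lowest.

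Sugar-responsive regulators were higher on 1:16 P:C. sugarbabe, a Gli-family transcription factor induced by dietary sugar, stood at 157, 125, 238 and 178 CPM on 1:16 P:C, against 9.3, 6.74, 5.95 and 12.7 CPM on 1:2 P:C. The lowest 1:16 P:C library was far above the highest 1:2 P:C library (log2 fold change 4.33 ± 0.34 (SE), adjusted p = 3.27e-06), and the gene lies on chromosome 2R, 12924567 to 12930644 (Release 6 plus ISO1 MT). Mondo itself, the sugar-sensing transcription factor, was higher by less (log2 fold change 0.77, adjusted p = 0.000565), as was dawdle (daw), a TGF-beta family ligand of the fat body (log2 fold change 1.47, adjusted p = 2.4e-05). The alpha-glucosidase tobi went the other way, at 13.1, 13.2, 19.9 and 10.2 CPM on 1:16 P:C, against 265, 498, 134 and 342 CPM on 1:2 P:C. It was lower on 1:16 P:C in every library (log2 fold change -4.46 ± 0.78 (SE), adjusted p = 0.000562). Of 13 tested genes of the sugar sensing list, 6 were higher and 1 was lower, with a median log2 fold change of 0.51.

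Large increases were seen in several main enzymes of fat synthesis, and a smaller number of its genes were lower. FASN1, the fatty acid synthase of the fat body, stood at 3445, 1681, 3010.0 and 2632 CPM on 1:16 P:C, against 274, 343, 97 and 282 CPM on 1:2 P:C. The 1:16 P:C libraries lay far above the 1:2 P:C libraries, and replicate 2 was the lowest of them (log2 fold change 3.43 ± 0.68 (SE), adjusted p = 0.00115). Acetyl-CoA carboxylase (ACC), which makes the malonyl-CoA that FASN1 uses, averaged 518 ± 163 CPM on 1:16 P:C and 83.1 ± 21.7 CPM on 1:2 P:C (SD, n = 4 each). AcCoAS, the acetyl-CoA synthetase, and Desat1, the main fatty acyl desaturase, had log2 fold changes of 2.83 and 3.01. Gpat4, which starts glycerolipid assembly, had 1.17, while the acyltransferase Agpat1 had -1.03 (adjusted p = 0.0348). FASN3, another fatty acid synthase, averaged 122 ± 55.5 CPM on 1:16 P:C and 244 ± 20.9 CPM on 1:2 P:C (SD, n = 4 each), and ATPCL, which makes cytosolic acetyl-CoA, had a log2 fold change of -0.47 (adjusted p = 0.0399). Over the list, 10 of 20 genes were higher (50%, against 24.6% of all genes tested), with a median of 0.44. The 3 lower genes (15%) were below the 24.4% of all genes tested. The Agpat1 call was lost without 1:16 P:C replicate 1, 3 or 4, without 1:2 P:C replicate 1, 2 or 4 and with the roX1 covariate (adjusted p = 0.0589). Only 1 of the 3 lower genes was called without 1:16 P:C replicate 1, 3 or 4 or 1:2 P:C replicate 2, and with the roX1 covariate. The elongase eloF (log2 fold change 3.27, adjusted p = 0.0463) lost its call without any library other than 1:2 P:C replicate 4, without which its log2 fold change was 4.80. Its values rest on few reads, with 44 counts in all on 1:16 P:C and 5 on 1:2 P:C.

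Carbohydrate digestion did not move as one. Amyrel, an amylase-related secreted protein, stood at 3.86, 0.758, 4.99 and 3.66 CPM on 1:16 P:C, against 372, 476, 398 and 526 CPM on 1:2 P:C. The groups lay far apart (log2 fold change -7.06 ± 0.71 (SE), adjusted p = 1.47e-05). Amy-p, a digestive alpha-amylase, was also lower (log2 fold change -2.95, adjusted p = 0.00776), and it shares most of its sequence with Amy-d, so reads of the pair may have been split or dropped in counting. The maltase Mal-A7 was higher, at 28.8, 31.1, 51.8 and 34.3 CPM on 1:16 P:C, against 2.29, 4.3, 1.04 and 6.12 CPM on 1:2 P:C. In all, 2 of 14 genes were higher (14.3%, against 24.6% of all genes tested) and 5 lower (35.7%, against 24.4%), with a median of -0.45. Of the 14, 3 were lower without 1:16 P:C replicate 2 or 4 or 1:2 P:C replicate 1. Lip3, a secreted lipase, was lower in every library, at 3.07, 1.62, 3.02 and 3.17 CPM on 1:16 P:C, against 393, 555, 429 and 953 CPM on 1:2 P:C (log2 fold change -7.74 ± 0.65 (SE), adjusted p = 4.09e-06).

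Digestive serine proteases were mostly higher on the diet with less protein. The trypsin thetaTry stood at 118, 58.6, 169 and 139 CPM on 1:16 P:C, against 2.12, 3.91, 2.34 and 3.09 CPM on 1:2 P:C. All 1:16 P:C libraries were above all 1:2 P:C libraries (log2 fold change 5.40 ± 0.65 (SE), adjusted p = 5.14e-05). The trypsin epsilonTry averaged 1664 ± 645 CPM on 1:16 P:C and 156 ± 20.5 CPM on 1:2 P:C (SD, n = 4 each). Of 13 trypsin genes, 11 were higher and 0 lower, with a median of 2.36. Among 16 Jonah proteases, 7 were higher (43.8%, against 24.6% of all genes tested) and 4 lower (25%, against 24.4%). Jon65Aiv averaged 12591 ± 3169 CPM on 1:16 P:C and 2680.4 ± 938 CPM on 1:2 P:C (SD, n = 4 each), whereas Jon99Ci was lower (log2 fold change -3.63, adjusted p = 0.00187). Trypsin and Jonah genes lie in families of close copies, whose counts may share reads.

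Glycolysis, the tricarboxylic acid (TCA) cycle and oxidative phosphorylation (OXPHOS) were higher together on 1:16 P:C. Of 15 glycolytic genes, 13 were higher and 0 lower, with a median log2 fold change of 1.68. Gpdh1, the cytosolic glycerol-3-phosphate dehydrogenase that links glycolysis to lipid synthesis, stood at 813, 536, 753 and 764 CPM on 1:16 P:C, against 65, 99.9, 38 and 67.3 CPM on 1:2 P:C. Every 1:16 P:C library was above every 1:2 P:C library (log2 fold change 3.41 ± 0.56 (SE), adjusted p = 0.000372). Lactate dehydrogenase (Ldh) averaged 518 ± 141 CPM on 1:16 P:C and 75.3 ± 53.1 CPM on 1:2 P:C (SD, n = 4 each), and its 1:2 P:C replicate 2 was higher than the other 1:2 P:C libraries. In the TCA cycle 21 of 23 genes were higher and 0 lower, with a median of 1.67. Citrate synthase (kdn) had a log2 fold change of 2.85, SdhC of succinate dehydrogenase had 1.97, and ScsbetaA of succinyl-CoA synthetase had 0.92.

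Among 87 tested nuclear genes of OXPHOS, 67 were higher and 0 lower, with a median of 1.54. UQCR-6.4, a subunit of complex III, stood at 49.3, 31.4, 54.7 and 47.1 CPM on 1:16 P:C, against 12.9, 13.3, 11.6 and 10.2 CPM on 1:2 P:C. ND-PDSW, a subunit of complex I, averaged 90.4 ± 19.2 CPM on 1:16 P:C and 27.9 ± 0.944 CPM on 1:2 P:C (SD, n = 4 each). The 19 members with names ending in L, which are second copies of OXPHOS subunits, held 0 called genes, and of the other 68 genes 67 were higher. That division was made after the values were seen. The 19 genes of the mitochondrial genome moved less evenly, with 10 higher and 1 lower. Without any 1 of the 1:16 P:C replicates 1, 3 and 4 and the 1:2 P:C replicates 1, 2 and 3, 5 or 6 were higher, and with the roX1 covariate 6 were. ND3, a complex I subunit, averaged 224 ± 40.02 CPM on 1:16 P:C and 92.9 ± 6.88 CPM on 1:2 P:C (SD, n = 4 each), while the small ribosomal RNA srRNA averaged 36.3 ± 5.1 CPM on 1:16 P:C and 79.7 ± 5.97 CPM on 1:2 P:C (SD, n = 4 each). Poly(A) selection bears on ribosomal RNA levels.

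The genes that make and fold mitochondrial proteins were also higher. All 72 tested genes of the mitochondrial ribosome were higher, with log2 fold changes of 0.35 to 1.27 and a median of 0.76. Of 90 cytosolic ribosomal protein genes, 83 were higher and 0 lower, with a median of 0.63. PolrMT, the mitochondrial RNA polymerase, averaged 32.4 ± 5.33 CPM on 1:16 P:C and 12.7 ± 3.76 CPM on 1:2 P:C (SD, n = 4 each). TFAM, which packages mtDNA, differed by little but without overlap (log2 fold change 0.34 ± 0.06 (SE), adjusted p = 0.000654). The fusion protein Opa1 had a log2 fold change of 0.60 and the mitochondrial chaperone Hsc70-5 of 1.09.

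**Figure D2:**
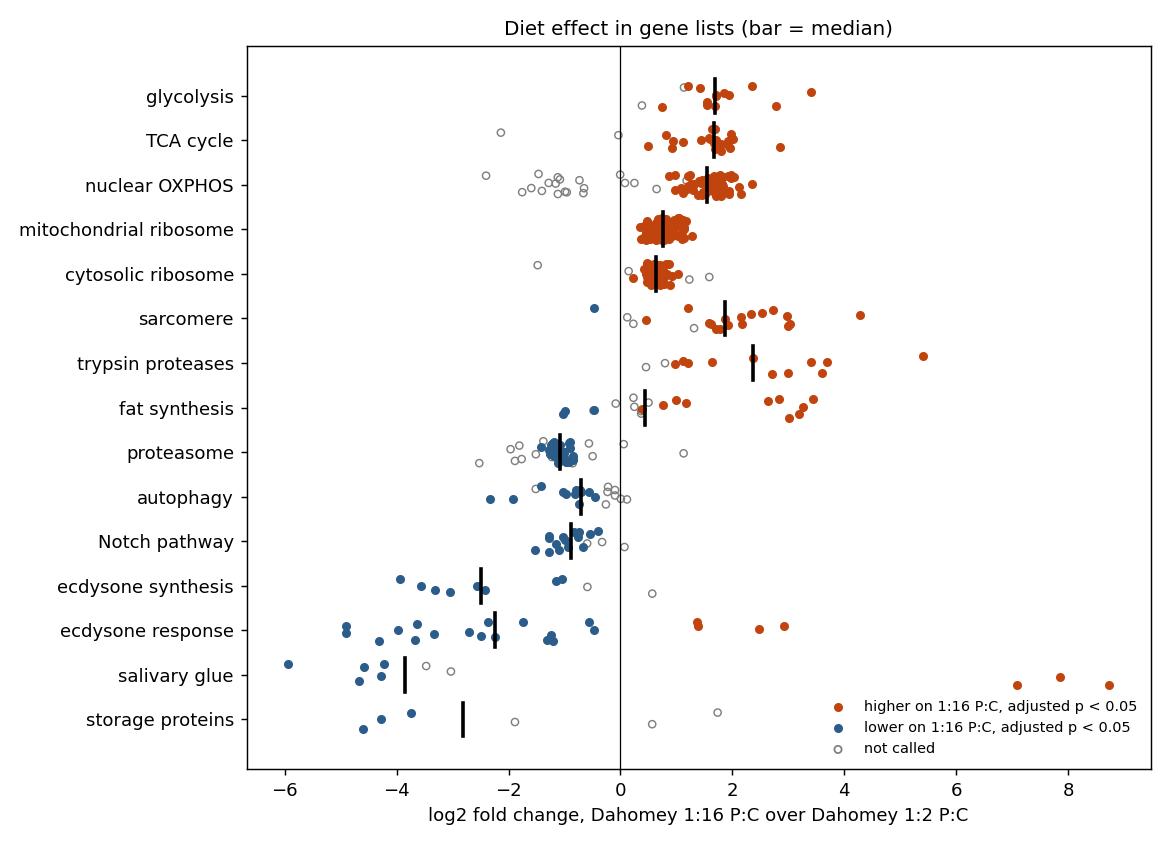
Log2 fold change of Dahomey 1:16 P:C over Dahomey 1:2 P:C for each tested gene of 15 lists, where filled points passed an adjusted p of 0.05, open points did not, and the bar is the median of the list. Glycolysis, TCA cycle, OXPHOS, ribosome and sarcomere lists lie mostly right of 0, and proteasome, Notch and ecdysone lists lie mostly left of it.

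Genes of the pentose phosphate pathway, glycogen and antioxidant defence were mostly higher, and each list held lower members as well. Of 10 pentose phosphate genes 8 were higher and 1 lower. Pgd, phosphogluconate dehydrogenase, had a log2 fold change of 1.18, and Zw, glucose-6-phosphate dehydrogenase and the entry enzyme of the pathway, was lower (log2 fold change -0.38 ± 0.13 (SE), adjusted p = 0.0269). The Zw call was lost with the roX1 covariate (adjusted p = 0.0870) and without 1:16 P:C replicate 3 or 4 or 1:2 P:C replicate 3. Of 10 glycogen and trehalose genes 6 were higher and 1 lower. The glycogen branching enzyme AGBE averaged 215 ± 52.9 CPM on 1:16 P:C and 40.3 ± 15.6 CPM on 1:2 P:C (SD, n = 4 each). Glycogen synthase (Glys) had a log2 fold change of 1.48 and glycogen phosphorylase (Glyp) of 1.89. Of 15 antioxidant genes 9 were higher and 2 lower. The thioredoxin peroxidase Prx2 had a log2 fold change of 2.52, whereas catalase (Cat) had -1.01 (adjusted p = 0.00704).

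Muscle structural genes were among the most abundant that were higher. Of 21 sarcomere genes 17 were higher and 1 lower, with a median of 1.87, and the list held 6.05, 4.25, 6.64 and 6.28% of the counts on 1:16 P:C, against 1.13, 2.06, 0.841 and 1.89% on 1:2 P:C. Mhc, the muscle myosin heavy chain, stood at 11282, 6523, 13398 and 11691 CPM on 1:16 P:C, against 602, 2668, 249 and 1722 CPM on 1:2 P:C. The 1:2 P:C libraries were themselves widely spread, with replicates 1 and 3 lowest, and the call was lost without 1:2 P:C replicate 1 and without replicate 3 (with all libraries, log2 fold change 3.03 ± 0.99 (SE), adjusted p = 0.0207). The actin Act57B averaged 14078 ± 4098 CPM on 1:16 P:C and 2429.9 ± 1161 CPM on 1:2 P:C (SD, n = 4 each) and the tropomyosin Tm1 2242 ± 499.7 CPM on 1:16 P:C and 684 ± 144 CPM on 1:2 P:C (SD, n = 4 each). The exception was Zasp66, a Z-disc protein (log2 fold change -0.47, adjusted p = 0.0171), whose libraries overlapped and whose call was lost without 1:16 P:C replicate 4 or 1:2 P:C replicate 3 and with the roX1 covariate. In RNA of mixed tissues, fewer cells of a type and less RNA per cell cannot be told apart.

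**Figure D3:**
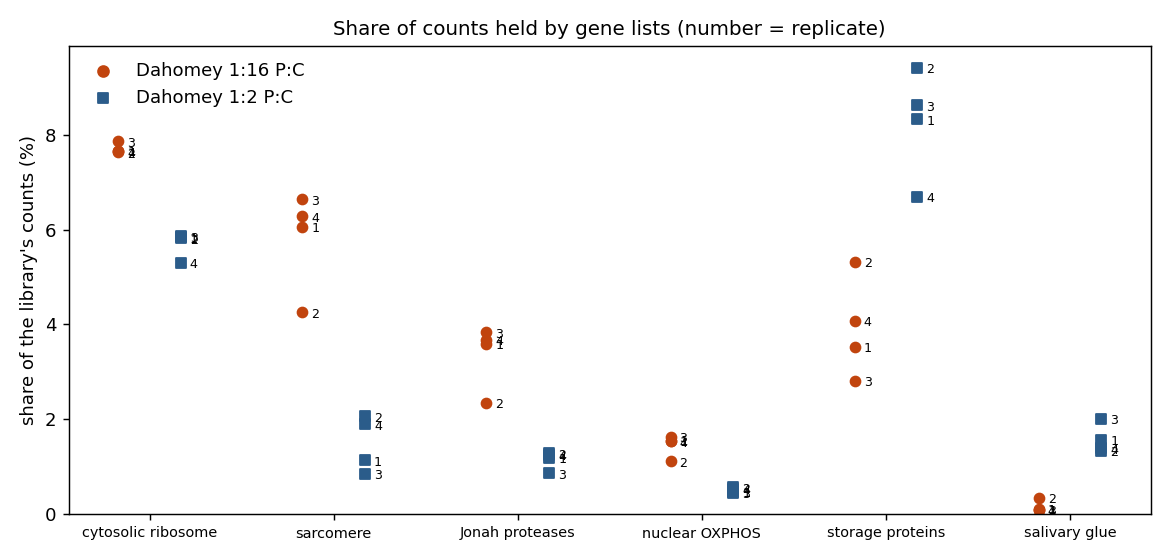
Share of each library's counts, in percent, held by 6 gene lists, circles for Dahomey 1:16 P:C and squares for Dahomey 1:2 P:C, numbered by replicate. Ribosomal, sarcomere, Jonah and OXPHOS genes hold more of the 1:16 P:C libraries, storage protein and glue genes hold more of the 1:2 P:C libraries, and 1:16 P:C replicate 2 is the highest of its group for the last 2 lists.

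Ecdysone synthesis and response were lower on 1:16 P:C. Of 10 synthesis genes 8 were lower and 0 higher, and all 7 steroid-making enzymes of the list were among them, with log2 fold changes of -3.93 to -1.05. spok, a Halloween gene P450 of the prothoracic gland, stood at 4.75, 10.5, 4.99 and 4.36 CPM on 1:16 P:C, against 75.2, 67.2, 83.8 and 66.5 CPM on 1:2 P:C. 1:16 P:C replicate 2 was the highest of its group and still below all 1:2 P:C libraries (log2 fold change -3.57 ± 0.30 (SE), adjusted p = 4.16e-06). Npc1a, which moves sterols out of endosomes, had a log2 fold change of -1.15. Of 21 response genes 17 were lower and 4 higher, with a median of -2.25. The ecdysone receptor EcR stood at 59.3, 149, 60.1 and 66.9 CPM on 1:16 P:C, against 279.8, 249, 329 and 258 CPM on 1:2 P:C (log2 fold change -1.73 ± 0.29 (SE), adjusted p = 0.000458), and without 1:16 P:C replicate 2 its log2 fold change was -2.17. The early gene Eip74EF averaged 47.6 ± 28.5 CPM on 1:16 P:C and 246 ± 60.3 CPM on 1:2 P:C (SD, n = 4 each). The 4 higher genes included Cyp18a1, which inactivates ecdysone (log2 fold change 2.93), and the nuclear receptor ftz-f1 (log2 fold change 1.38).

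Several products of the late fat body and salivary gland were lower and others were not, with 1:16 P:C replicate 2 apart from its group. Fbp1, the receptor for storage proteins, stood at 10.6, 5263, 10.5 and 13.8 CPM on 1:16 P:C, against 38044, 34149, 43382 and 13844 CPM on 1:2 P:C. Replicate 2 was far above the other 1:16 P:C libraries (log2 fold change -4.61 ± 1.69 (SE), adjusted p = 0.0366). The call was lost with the roX1 covariate (adjusted p = 0.0620), in a fit of the 8 Dahomey libraries alone, and without 1:16 P:C replicate 1, 3 or 4 or 1:2 P:C replicate 1, 2 or 3, whereas without replicate 2 the log2 fold change was -11.44. Fbp2 had a log2 fold change of -4.28 and the storage protein Lsp1alpha stood at 706, 283, 383 and 593 CPM on 1:16 P:C, against 5983, 9782, 4750.3 and 5843 CPM on 1:2 P:C. Lsp1beta, another storage protein, stood at 23012, 16875, 22683 and 26036 CPM on 1:16 P:C, against 5518, 10144, 3673 and 7262 CPM on 1:2 P:C, so that its 1:16 P:C libraries were all above its 1:2 P:C libraries, and it did not pass (log2 fold change 1.74, adjusted p = 0.0826). Of 6 storage protein genes 3 were lower. Lsp1gamma (log2 fold change 0.57) and Lsp2 (log2 fold change -1.89) did not pass either. Without 1:16 P:C replicate 2 the log2 fold change of Fbp2 was -5.09.

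Of 10 glue genes 5 were lower and 3 higher. Sgs8, a small glue protein, stood at 0.168, 132, 0.335 and 0.422 CPM on 1:16 P:C, against 1076, 738, 1089 and 507 CPM on 1:2 P:C. Without 1:16 P:C replicate 2 its log2 fold change was -11.39, against -4.68 with all libraries (adjusted p = 0.0257), and 7 of the 10 genes were then lower. In the other direction, 2 were lower with the roX1 covariate, 2 or 3 without any 1 of the 1:16 P:C replicates 1, 3 and 4 and the 1:2 P:C replicates 1, 2 and 3, and 1 in a fit of the 8 Dahomey libraries alone, where the Sgs8 call was lost. Sgs5bis had a log2 fold change of -5.95, and -11.43 without 1:16 P:C replicate 2. The higher genes were the new glue genes, which are expressed in the salivary gland before the Sgs genes. ng1 stood at 110.2, 37.4, 92.4 and 85.9 CPM on 1:16 P:C, against 0.0347, 0.574, 0.0949 and 0.0638 CPM on 1:2 P:C and ng2 had a log2 fold change of 7.85, with all 1:16 P:C libraries above all 1:2 P:C libraries. Without 1:2 P:C replicate 2 the ng1 value was 10.13, and without 1:2 P:C replicate 4 the ng2 value was 8.63. Glue, storage protein and ecdysone genes change with the age of a larva within the third instar, so diet and age within the stage cannot be told apart from these libraries. Their part in the other results was not tested.

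**Figure D4:**
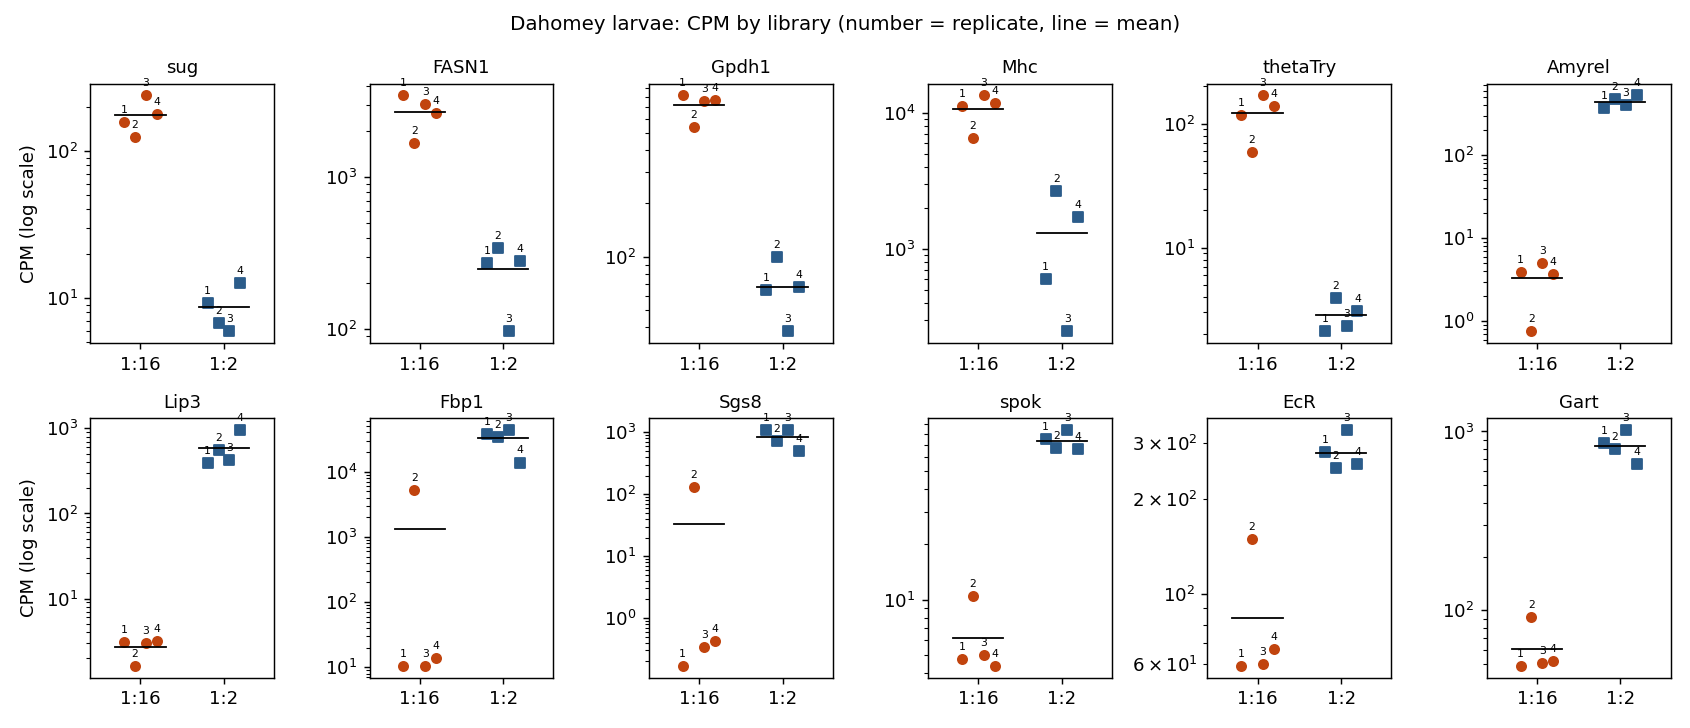
CPM on a log scale of 12 genes in each Dahomey library, 1:16 P:C on the left and 1:2 P:C on the right of each panel, numbered by replicate, with the mean as a line. The diets do not overlap for any of the 12 genes, and 1:16 P:C replicate 2 stands above the rest of its group for Fbp1, Sgs8, spok, EcR and Gart.

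Genes of protein turnover were mostly lower or not called. Of 48 proteasome genes 33 were lower and 0 higher, with a median of -1.08. Rpt5, an ATPase of the regulatory particle, stood at 74.7, 150.4, 77.6 and 77.8 CPM on 1:16 P:C, against 264, 259.7, 307 and 186 CPM on 1:2 P:C. 1:16 P:C replicate 2 lay between the rest of its group and the 1:2 P:C libraries. Of 20 autophagy genes 12 were lower and 0 higher, and Atg8a, which coats the autophagosome, averaged 344 ± 39.7 CPM on 1:16 P:C and 676 ± 85.6 CPM on 1:2 P:C (SD, n = 4 each). Of 9 cell death genes 5 were lower and 1 higher, and the effector caspase Drice had a log2 fold change of -1.63. Of 18 Notch pathway genes 15 were lower and 0 higher, with a median of -0.89. Notch (N) itself averaged 66.1 ± 30.8 CPM on 1:16 P:C and 159 ± 21 CPM on 1:2 P:C (SD, n = 4 each) and kuz, the protease that cleaves it, had a log2 fold change of -1.53.

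Purine synthesis was among the lower metabolic pathways. Gart, which carries out several steps of the pathway, stood at 49, 91.5, 50.5 and 52 CPM on 1:16 P:C, against 857, 795, 1017 and 659.6 CPM on 1:2 P:C. All 1:16 P:C libraries were well below all 1:2 P:C libraries (log2 fold change -3.78 ± 0.26 (SE), adjusted p = 1.44e-06). Pfas, which acts in the middle of the pathway, had a log2 fold change of -2.04, and Adss, which makes adenylosuccinate, was higher (log2 fold change 1.56). Of 10 purine synthesis genes 8 were lower and 1 higher, and 16 genes of all nucleotide synthesis held 8 lower and 2 higher. The purine genes were split from that list and were not planned as a list of their own. Oat, ornithine aminotransferase, averaged 35.4 ± 16.9 CPM on 1:16 P:C and 358 ± 81.5 CPM on 1:2 P:C (SD, n = 4 each).

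Genes of adipokines and feeding peptides were mostly higher. Of 14 tested, 9 were higher (64.3%, against 24.6% of all genes tested) and 1, Gbp1, was lower, with a median log2 fold change of 0.98. AkhR, the receptor of adipokinetic hormone on the fat body, stood at 84.7, 67.4, 86.5 and 75.2 CPM on 1:16 P:C, against 19.5, 18.5, 19.9 and 19.1 CPM on 1:2 P:C (log2 fold change 2.02 ± 0.15 (SE), adjusted p = 2.7e-06). The feeding peptide gene NPF averaged 6.3 ± 1.39 CPM on 1:16 P:C and 1.24 ± 0.0676 CPM on 1:2 P:C (SD, n = 4 each), and Gbp1, a growth-blocking peptide released by the fat body, averaged 2.17 ± 0.761 CPM on 1:16 P:C and 15.7 ± 7.97 CPM on 1:2 P:C (SD, n = 4 each). Of 26 insulin and TOR genes 5 were higher (19.2%, against 24.6% of all genes tested) and 10 lower (38.5%, against 24.4%), with a median of -0.18. Of the 26, 3 were higher without 1:2 P:C replicate 2. The insulin-like peptide genes Ilp2 and Ilp3 had log2 fold changes of 0.79 and 1.21, and the insulin receptor InR had -0.50 and did not pass (adjusted p = 0.0765), but passed without 1:16 P:C replicate 2 (adjusted p = 0.0438). The lipase brummer (bmm) had -0.69 and did not pass either (adjusted p = 0.0513). It passed without 1:16 P:C replicate 2 (log2 fold change -1.05, adjusted p = 0.00196) and without 1:2 P:C replicate 4 (adjusted p = 0.0421). Most called genes of fat breakdown went the other way. Of 22 lipolysis and beta-oxidation genes 12 were higher (54.5%, against 24.6% of all genes tested) and 2 lower, with a median of 0.77. Lip3 was among the lower genes of that list.

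Immune genes were lower where they passed the test. Of 20 antimicrobial peptide genes 8 were lower (40%, against 24.4% of all genes tested), 0 higher and 12 not called. Over 23 alternative settings 4 to 9 were lower. Drosomycin (Drs), an antifungal peptide, stood at 1.97, 1.07, 1.3 and 0.774 CPM on 1:16 P:C, against 391, 153, 128 and 747 CPM on 1:2 P:C (log2 fold change -8.12 ± 1.33 (SE), adjusted p = 0.000355). Without 1:2 P:C replicate 4 its log2 fold change was -7.46. Its relative Drsl5 had 3 counts in all on 1:16 P:C and 5749 on 1:2 P:C, of which 3200 were in replicate 1, and its 1:2 P:C libraries ran between 2.9 and 111 CPM. The stress gene TotE had 3 counts on 1:16 P:C and 4661 on 1:2 P:C, of which 3343 were in replicate 1, and its 1:2 P:C libraries ran between 0.323 and 116 CPM. Of 6 hemocyte markers 4 were lower (66.7%, against 24.4% of all genes tested). He, a blood cell surface protein, had the largest decrease (log2 fold change -2.17). The other 2 markers lay above 0, at up to 0.83, and did not pass.

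Among 62 chitin-binding cuticle genes 27 were higher (43.5%, against 24.6% of all genes tested) and 13 lower (21%, against 24.4%). Cpr47Eg stood at 316, 99.4, 265 and 181 CPM on 1:16 P:C, against 0.208, 0.287, 0.285 and 0.255 CPM on 1:2 P:C (log2 fold change 9.68 ± 0.60 (SE), adjusted p = 1.02e-06), and the larval cuticle gene Lcp65Ag1 had a log2 fold change of 8.62, although it lies among near-identical copies. Lcp1, another larval cuticle gene, was lower, at 98.5, 732, 66 and 102 CPM on 1:16 P:C, against 6713, 6263, 6096 and 6128 CPM on 1:2 P:C. Without 1:16 P:C replicate 2 the log2 fold change of Lcp1 was -6.15, against -4.66 with all libraries. TwdlP, of the Tweedle cuticle family, had a log2 fold change of 6.16, and 6.83 without 1:2 P:C replicate 4.

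The 6 Hsp70 copies, which can share reads, were all higher (log2 fold changes 3.30 to 3.65), and the 5 small heat shock genes tested were all lower (-4.60 to -2.09). Hsp27, whose log2 fold change of -3.21 was -3.93 without 1:16 P:C replicate 2, averaged 68.2 ± 53.8 CPM on 1:16 P:C and 633 ± 292 CPM on 1:2 P:C (SD, n = 4 each) and the mitochondrial chaperonin Hsp60A 337 ± 39.4 CPM on 1:16 P:C and 135 ± 13.1 CPM on 1:2 P:C (SD, n = 4 each). Of 78 P450 genes 36 were higher (46.2%, against 24.6% of all genes tested) and 12 lower (15.4%, against 24.4%). The detoxification gene Cyp6g1 was lower, at 9.37, 22.1, 16.7 and 12.4 CPM on 1:16 P:C, against 131, 135, 230.2 and 163 CPM on 1:2 P:C. Among unnamed genes, CG12522 had 590 counts on 1:16 P:C and 0 on 1:2 P:C, which makes it at least 237-fold higher against a floor of 3 counts over the group. CG11350 averaged 1078 ± 513 CPM on 1:16 P:C and 1.17 ± 0.662 CPM on 1:2 P:C (SD, n = 4 each). CG6271 averaged 0.154 ± 0.0382 CPM on 1:16 P:C and 288 ± 144 CPM on 1:2 P:C (SD, n = 4 each) and CG42500 7.47 ± 4.32 CPM on 1:16 P:C and 2625 ± 672 CPM on 1:2 P:C (SD, n = 4 each).

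The diet effect of Dahomey larvae was set against that of Alstonville larvae, which were other libraries under the same pair of diets. In Alstonville 7640 genes were called (59.9%), and 5449 were called in both mitotypes in the same direction, which is 87.2% of the Dahomey calls and 71.3% of the Alstonville calls. Another 10 were called in both with opposite directions. The difference between the diet effects passed an adjusted p of 0.05 for 100 genes (0.784%), and for 1936 at an unadjusted p of 0.05. In 95 of the 100 the Dahomey change was the smaller in size. The count of 100 rested on single Dahomey libraries. It was 4 without 1:16 P:C replicate 4, 4 without 1:2 P:C replicate 1, 10 without 1:2 P:C replicate 2 and 13 without 1:2 P:C replicate 3. It was 56, 67 and 89 without 1:16 P:C replicates 2, 3 and 1, and 237 without 1:2 P:C replicate 4. No Alstonville library was left out in turn. The methods say that backcrossing reduced the variation on chromosome 4, and what was left of it cannot be told apart from mtDNA.

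CG3397 averaged 12.4 ± 5.88 CPM on 1:16 P:C and 12 ± 2.69 CPM on 1:2 P:C (SD, n = 4 each) in Dahomey, while its Alstonville log2 fold change was -5.10 (interaction 5.14 ± 0.84 (SE), adjusted p = 0.0283). CG15369 had log2 fold changes of -2.39 in Dahomey and -7.45 in Alstonville (interaction 5.06 ± 0.58 (SE), adjusted p = 0.00446). The forkhead gene fd96Cb, whose Dahomey call (adjusted p = 0.0444) was lost without 6 of the 8 libraries in turn, had -1.10 and -4.81 (interaction 3.71 ± 0.63 (SE), adjusted p = 0.0283). On the side where Alstonville had the larger value, TwdlO had 3.78 and 11.65 (interaction -7.87 ± 1.44 (SE), adjusted p = 0.0346), TwdlN, which did not pass in Dahomey alone (adjusted p = 0.0662), 1.72 and 8.18 (interaction -6.47 ± 1.11 (SE), adjusted p = 0.0306), and CG12480 2.02 and 6.35 (interaction -4.33 ± 0.90 (SE), adjusted p = 0.0455). The Dahomey values of TwdlO, TwdlN and CG12480 rest on few reads. TwdlO had 64 counts in all on 1:16 P:C and 5 on 1:2 P:C in Dahomey, TwdlN 15 and 5, and CG12480 49 and 14. Their Alstonville means on 1:16 P:C were 297, 10.4 and 4.52 CPM.

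DNA replication genes differed in how many were called. In Dahomey 6 of 35 were lower (17.1%, against 24.4% of all genes tested) and 1 higher (median -0.12), and in Alstonville 29 were lower and 2 higher (median -0.77). Over all 12750 genes tested, 3742 were lower and 3898 higher in Alstonville. The test of the difference was passed by 3 of the 35. One was double parked (dup), which licenses replication origins, with -0.38 in Dahomey and -1.19 in Alstonville (interaction 0.81 ± 0.16 (SE), adjusted p = 0.0377). Without 1:16 P:C replicate 2, 15 of the 35 were lower in Dahomey, and without 1:16 P:C replicate 1, 3 or 4 or 1:2 P:C replicate 3, 2 or 3 were.

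Of the 6 genes named before the replication genes, CG15369 passed the interaction test under all 21 alternative settings run for it, and each of the other 5 lost its call under 5 or more.

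**Figure D5:**
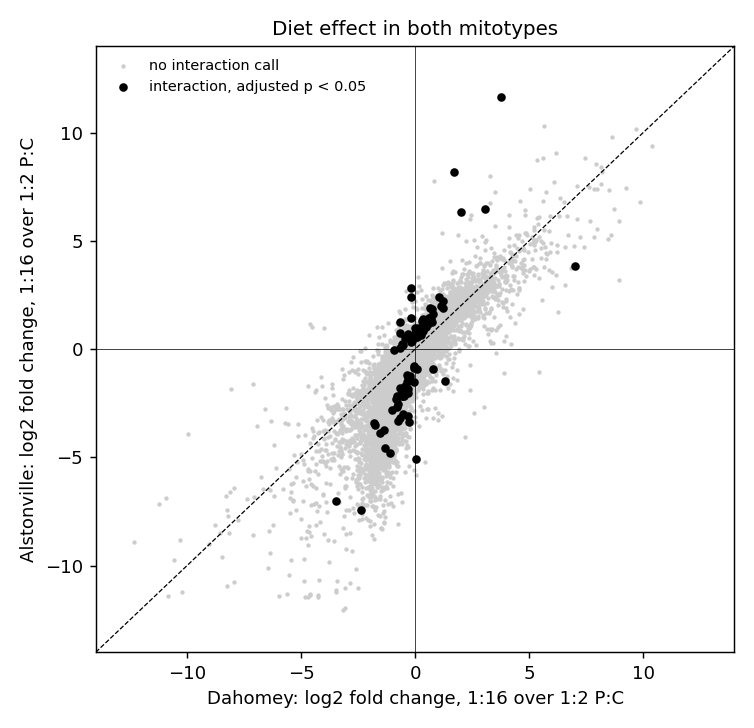
Log2 fold change of 1:16 P:C over 1:2 P:C for each of 12750 genes in Dahomey larvae, on the horizontal axis, and in Alstonville larvae, on the vertical axis, with the 100 genes that passed the interaction test in black and the line of equal effects dashed. Most of the black points lie farther from 0 on the Alstonville axis, as 95 of the 100 were smaller in Dahomey.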

How the data were processed

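RNA of 16 larval libraries was sequenced by the authors on poly(A)-selected TruSeq libraries, and the deposited tables hold raw counts per gene made with featureCounts, whose version is not given in the sources used here. The deposited series table also gives each gene's exon length, an annotation value of another kind. All 17207 genes agreed between that table and the files of single libraries, with 0 values that differed. Names came from RefSeq for the Release 6 plus ISO1 MT assembly, for 17063 genes. The number of columns of other samples left unused was 0.

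A gene entered the test if 4 or more libraries reached 0.25 CPM. Testing used edgeR 4.0.16 (TMM scaling, robust quasi-likelihood fit, R 4.3.3) on all 16 libraries with 1 coefficient per group, and p-values were adjusted over all genes by the Benjamini-Hochberg method. A gene was called at an adjusted p under 0.05. Fold changes are 1:16 P:C over 1:2 P:C. The test was checked on simulated counts. No pair of libraries within a group agreed within sampling noise (lowest chi-square per gene 17.2 over 12 pairs), so none was taken as a copy.

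Genes named were the 10 largest changes in each direction among called genes with no overlap and at least 1 CPM, up to 2 called genes per direction of each list, genes the study names, the 3 largest interactions in each direction and the 3 most abundant called genes in each direction. Not all of these are printed, and a few were named after their values were seen (FASN1, ACC, Desat1, Ldh, Mondo, kdn, Amy-p). The 52 lists held 569 symbols, of which 558 matched, beside lists made by name pattern. The members and lists were chosen with earlier results of these data known. The purine, steroid-making enzyme, Hsp70 and small heat shock groups were cut out of longer lists and were not among the planned lists. Alternatives were other scalings, filters, DESeq2 1.42.0, limma 3.58.1, a replicate block and leaving out libraries. Promoter motifs were not analysed here.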

Additional observations from a re-analysis of the deposited data

Results flagged for a closer look

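Among 100 genes followed singly, each with 2 groups of 4 libraries, 26 of 200 groups held 1 library set apart from the other 3 by more than the Dixon critical ratio of gap to range, where chance gives about 1 in 20. Of these, 19 were 1:16 P:C replicate 2. In 2 of the 26, Drsl5 and TotE on 1:16 P:C, the other 3 libraries were at 0, so any count sets 1 library apart and the ratio says nothing, which leaves 24.

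That library was above the other 3 of its group for FASN3 (205 CPM against 88.8 to 96.9), EcR (149 CPM against 59.3 to 66.9), Eip74EF (90.2 CPM against 30.2 to 35), spok (10.5 CPM against 4.36 to 4.99), Npc1a (142 CPM against 107 to 109), Fbp1 (5263 CPM against 10.5 to 13.8), Sgs5bis (128 CPM against 0.503 to 1.02), Sgs8 (132 CPM against 0.168 to 0.422), Lcp1 (732 CPM against 66 to 102), Gart (91.5 CPM against 49 to 52), N (112 CPM against 47 to 57), Hsp27 (149 CPM against 37 to 47.7), Drice (64.1 CPM against 29.5 to 32.7), Rpt5 (150.4 CPM against 74.7 to 77.8), fd96Cb (6.79 CPM against 2.6 to 3.23), bmm (116 CPM against 51.6 to 58.4). It was below them for Lip3 (1.62 CPM against 3.02 to 3.17), Hsc70-5 (212 CPM against 253 to 261), ng2 (49.98 CPM against 95.2 to 104). 1:16 P:C replicate 1 was above the others for TotE (0.126 CPM against 0 to 0). 1:16 P:C replicate 4 was above the others for Drsl5 (0.106 CPM against 0 to 0). 1:2 P:C replicate 2 was above the others for Ldh (155 CPM against 42.9 to 55.1), ng1 (0.574 CPM against 0.0347 to 0.0949), CG11350 (2.15 CPM against 0.763 to 0.957). 1:2 P:C replicate 3 was above the others for TwdlO (0.0633 CPM against 0.0319 to 0.0358). That TwdlO group held 5 counts in all and no library had more than 2, so the ratio says little there. 1:2 P:C replicate 4 was below the others for Fbp2 (1754 CPM against 5976 to 6414).

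The diet effect differed between mitotypes for 7 of them (Dahomey minus Alstonville, log2, adjusted p under 0.05), at 5.14 for CG3397, 5.06 for CG15369, 3.71 for fd96Cb, -7.87 for TwdlO, -6.47 for TwdlN, -4.33 for CG12480 and 0.81 for dup.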

How the results depend on the processing

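The count of 6249 called genes ran between 4442 (adjusted p under 0.01) and 8523 (limma-trend with 3 surrogate variables) over 23 settings, and every gene called both there and in the fit reported kept its direction. Leaving out 1 Dahomey library gave 5302 to 6517. Upper-quartile scaling gave 3473 higher and 2846 lower, and no scaling moved the share of higher calls by over 10 points. The median of all genes ran between -0.21 and 0.14.

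The interaction count of 100 was the least stable value. It was 155 with upper-quartile scaling, 210 with at least 10 counts in every library, 742 with DESeq2, and 176, 2007, 3582 and 4074 with limma-trend and 0, 1, 2 and 3 surrogate variables, which by construction take residual variance away. It was 3 at an adjusted p under 0.01, 1749 with the roX1 covariate, and 4 to 237 when 1 Dahomey library was left out. The causes were not tested.

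With the replicate block 5585 genes were called between diets and 6 for the interaction. Deviations from the group mean correlated between same-numbered libraries at -0.29, -0.29, 0.26 and 0.69. Only 1:16 P:C replicate 4 matched its own number best. Such correlations cannot show whether same-numbered libraries shared a bottle or a batch, so pairing was left undecided. With the replicate block the adjusted p of InR was 0.0109 and that of Agpat1 0.0670. Library sizes without mtDNA genes gave the same 6249 and 100. TMM scaling takes up such a change of library size, so this sameness was built in and tests nothing. Of 100 genes followed singly, none reversed, and 11 calls were lost at an adjusted p under 0.01. eloF lost its call without any one of 7 libraries. Leaving out 1:16 P:C replicate 2 and 1:2 P:C replicate 4 together and the roX1 covariate were chosen after seeing the data, and the first gave 6568 genes and 94 interactions. Counts within lists moved more than the whole. Over the 23 settings the higher genes numbered 4 to 13 of the mtDNA-encoded list, 12 to 40 of chitin-binding cuticle, 25 to 51 of cytochrome P450, 3 to 13 of Tweedle cuticle and 8 to 15 of glycolysis, and the lower genes 1 to 7 of salivary glue and 1 to 15 of DNA replication, whereas 69 to 72 mitochondrial and 81 to 89 cytosolic ribosomal genes were higher.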

Other observations

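Proton pump and detoxification genes were not described above. Of 32 V-ATPase genes, which acidify the gut lumen and lysosomes, 20 were higher on 1:16 P:C and 1 lower (6 lower with the roX1 covariate), with a median log2 fold change of 0.74. Of 31 UDP-glycosyltransferases 19 were higher and 6 lower (median 1.04), and of 35 glutathione S-transferases 11 were higher (31.4%, against 24.6% of all genes tested) and 5 lower (median 0.44), so the family was near the share of all genes. Among 7 midgut markers 5 were higher and 1 lower. Only 3 were higher with the roX1 covariate or without 1:16 P:C replicate 1 or 3 or 1:2 P:C replicate 1 or 3. Several of these markers are trypsin, Jonah and V-ATPase genes, so they are not separate from the counts of those families. Among 9 imaginal disc markers 1 was higher and 6 lower.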
